A study of Mus musculus with 4 samples.

Results

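The heat shock chaperones are the proteins that keep other proteins folded in the cytosol, and 9 of their genes were examined in the mouse eye together with Hsf1, the transcription factor that switches them on. The 10 genes were chosen by symbol, as cytosolic members of the HSP90, HSP70, HSP110, HSP40 and small heat shock protein families and their regulator, from the 22863 genes of the deposited RNA-seq table, and all 10 were found and passed the filter on low values. RNA was measured in 4 samples of posterior eye (retina, RPE, choroid and sclera, with lens and anterior eye removed) from C3H mice of the C3H/f+/+ line, which makes melatonin and lacks the Pde6b mutation of the parent strain. In subjective day (2 samples) the mice had spent 18 hours in darkness and were taken at CT 6, the circadian noon, although another passage of the study gives a longer time in the dark. In objective day (2 samples) they had seen morning light, were then dark-adapted for 1 hour and were taken at ZT 6, noon by the lighting schedule. A sample was a pool of 4 eyes taken from a female and a male mouse, age-matched by the study's account, and all eyes were dissected in the dark. The comparison asks what light earlier in the day does to the eye's transcripts at a fixed clock phase.

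HSF1 is kept inactive by chaperones and, when unfolded proteins draw these away, it forms trimers that bind heat shock elements and raise transcription of chaperone genes. HSP70 proteins bind exposed hydrophobic stretches of a client with the help of J-domain proteins (HSP40), HSP110 proteins recharge HSP70 with ATP, and HSP90 proteins finish the folding of signaling proteins such as kinases and steroid receptors. Photoreceptors make large amounts of membrane protein every day, and HSP90 is known to fold rod phosphodiesterase together with the co-chaperone AIPL1.

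Values are called adjusted counts here, because their fractional form and similar sums look like counts brought to a common library size, which no source used here states. They summed to between 33278417 and 35236783 per sample, and these sums were not taken as the sequencing depth. Mitochondrially encoded genes made up 6.06% to 6.38% of the sum in subjective day against 2.63% to 3.4% in objective day, and the part of this shift in the values below was not tested. Rod markers summed to between 1999257 and 2515745 and the other retinal marker lists were well expressed, while of the RPE markers Best1 was listed at 0 in a subjective day sample. Of the markers tested, 2 of 5 for RPE, 1 of 4 for Müller glia and 1 of 5 for bipolar cells were called lower in objective day, as were Hsp90aa1 and Dnaja1 below, and 1 of 3 for red blood cells was called higher. Markers of ocular surface epithelium, which the dissection should remove, summed to 5331 and 5523 in subjective day against 1617 and 2793 in objective day, and the 3 of these 4 genes that were tested were all called lower. They moved in the same direction as Hsp90aa1, Dnaja1, Hspa1a and Hspa1b below, and their part in those values was not tested. With the GC trend removed, as described below, the RPE, Müller glia and bipolar calls were lost, and the ocular surface and red blood cell calls remained. The 4 genes whose calls were lost, named after their values were seen, went from -0.52 to -0.25 (Rpe65), -0.46 to 0.11 (Ermn), -0.34 to -0.24 (Slc1a3) and -0.31 to -0.20 (Cabp5) on the log2 scale. Lens markers followed the sample number, with sums of 51473 and 6023 in subjective day against 57334 and 14405 in objective day. Immediate early genes summed to 2513 and 2666 in subjective day against 4955 and 4833 in objective day, with 3 of 10 called higher. In such whole-tissue RNA, fewer cells of a type and less RNA per cell cannot be told apart.

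Hsp90aa1, which encodes the stress-inducible HSP90 alpha, and Dnaja1, which encodes a J-domain partner of HSP70, fell in objective day. Both calls were lost when a trend with GC content across all genes was removed, as described after the members, and when the variance prior did not follow mean expression, where limma called 0 of all genes and 3586 had an unadjusted p under 0.05. No member passed the threshold in the other direction. The threshold was an adjusted p under 0.05 in limma's test on log2(adjusted count + 1), adjusted over the 17784 genes with an adjusted count of at least 10 in at least 2 samples. Of the 10 genes 2 were called lower, against 7.45% of all genes tested, and 0 were called higher, against 1.06%. At an unadjusted p under 0.05 there were 5 genes, namely these 2, Hspa1a, Hspa1b and Hsf1, against 25.4% of all genes tested. The median log2 fold change, objective over subjective day, was 0.05 over the 10 genes and 0.01 over all genes tested. The objective day values lay wholly below the subjective day values for 4 members and wholly above for 2, against 28.2% and 27.9% of all genes. With 2 samples against 2, the smallest p of an exact permutation test is 0.333, and calls therefore depend on limma's pooling of variance over genes.

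**Figure D1:**
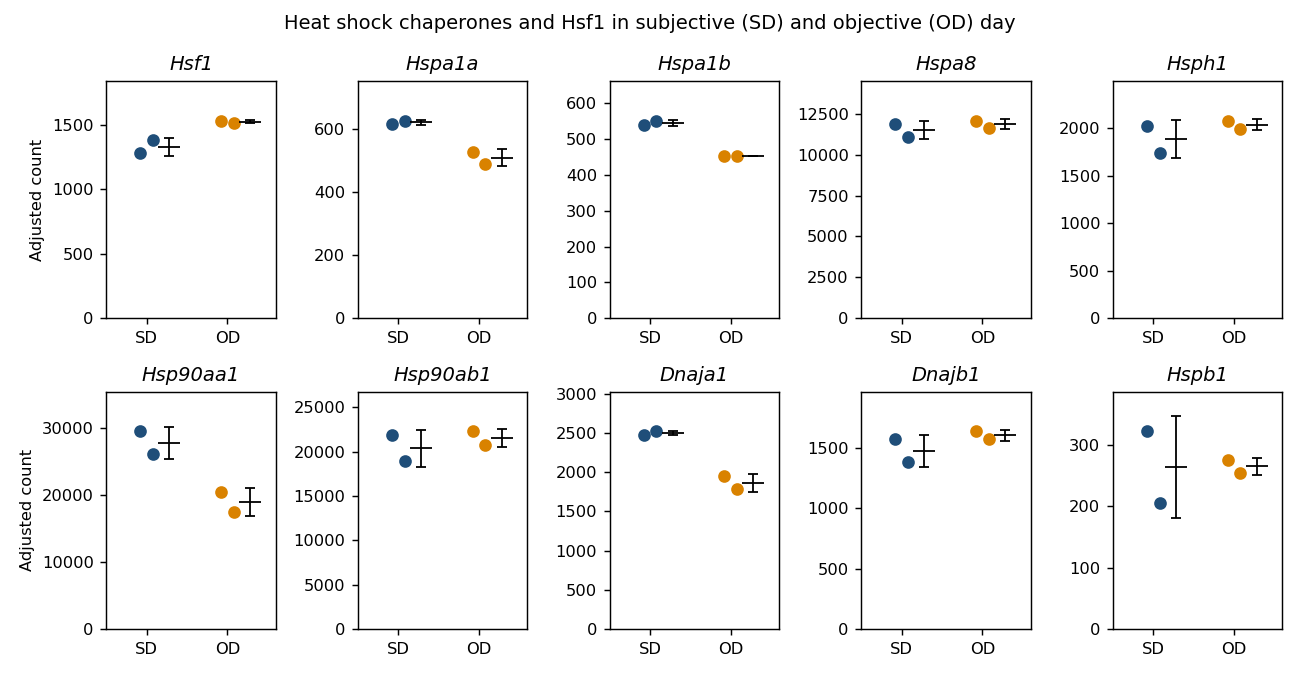
Adjusted count (vertical axis, starting at 0) of each of the 10 genes in the 2 subjective day (SD, blue) and 2 objective day (OD, orange) samples, with the mean and SD of each condition as a black bar. Hsp90aa1 and Dnaja1 are the 2 genes called lower. Hspa1a and Hspa1b also separate without passing the threshold, and the SD of Hspb1 in subjective day (83.2) is far wider than in objective day (14.1).

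Hsf1 (ENSMUSG00000022556) maps to chromosome 15 from 76477422 to 76501913, plus strand, in GRCm38 with the GENCODE M21 annotation. Its adjusted counts were 1278 and 1380 in subjective day against 1533 and 1515 in objective day. Both objective day samples were thus above both subjective day samples, with a gap of 0.13 on the log2 scale between the nearest pair. The log2 fold change was 0.20 (SE 0.0683, limma adjusted p = 0.124), which did not pass the threshold. Its transcripts shared no stretch of 50 bases, the length of the reads in this study, with those of any other gene.

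The HSP90 pair carried most of the family's counts, between 66% and 71.3% of the summed adjusted counts of the 10 genes. Hsp90aa1 (ENSMUSG00000021270) maps to chromosome 12 from 110690605 to 110702728, minus strand. Hsp90aa1 had adjusted counts of 29562 and 26170 in subjective day against 20490 and 17459 in objective day. The lowest subjective day value was 0.35 above the highest objective day value on the log2 scale. Hsp90aa1 fell by 0.56 on the log2 scale (SE 0.103, limma adjusted p = 0.0196), from a mean of 27866 ± 2399 (SD, n = 2) to 18974 ± 2143 (SD, n = 2), and its mean in objective day was 0.681 of that in subjective day. Without the second objective day sample the log2 fold change was -0.44 and the adjusted p was 0.115.

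Hsp90ab1 (ENSMUSG00000023944), on the minus strand of chromosome 17 from 45567775 to 45573271, encodes the constitutive HSP90 beta. For Hsp90ab1 the adjusted counts were 21846 and 18914 in subjective day against 22307 and 20807 in objective day. The 2 conditions overlapped, and the log2 fold change was 0.08 (SE 0.0909, limma adjusted p = 0.612). The ratio of Hsp90aa1 to Hsp90ab1 within a sample was 1.35 and 1.38 in subjective day against 0.919 and 0.839 in objective day. The ratio therefore lay above 1 in both subjective day samples and below 1 in both objective day samples, and its log2 difference between the conditions was -0.64. This ratio was given no test, since it was computed after both genes had been seen, and it was not corrected for GC content. With the GC trend removed, as described below, the log2 fold changes were -0.37 for Hsp90aa1 and 0.03 for Hsp90ab1. Per kilobase of the longest annotated transcript, Hsp90aa1 stood at 8493 ± 731 (SD, n = 2) in subjective day, beside 8087 ± 823 for Hsp90ab1, a difference within the spread between samples, although the alpha form was the higher in both samples. In objective day the per-kilobase level of Hsp90aa1 was 5783 ± 653 (SD, n = 2) and that of Hsp90ab1 was 8554 ± 421, so that the beta form was the higher in both samples. Of the 50-base stretches of the longest Hsp90aa1 transcript, 58.5% also occurred in another annotated gene, mainly Gm12346 and Gm5844, compared with 4.49% for Hsp90ab1. How the authors' counting treated such reads was not given in the sources used here, and Gm12346 and Gm5844 themselves had adjusted counts between 2.784 and 25.08.

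**Figure D2:**
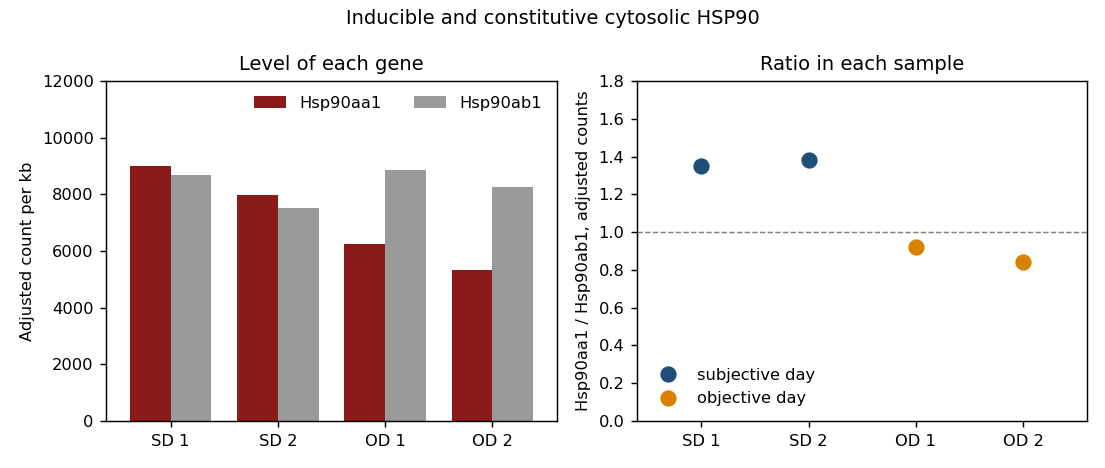
Left, adjusted count per kilobase of the longest transcript for Hsp90aa1 (red bars) and Hsp90ab1 (grey bars) in each of the 4 samples, on an axis that starts at 0. Right, the ratio of their adjusted counts in each sample, 1.35 and 1.38 in subjective day against 0.919 and 0.839 in objective day, with a dashed line at 1.

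Hspa1a (ENSMUSG00000091971) and Hspa1b (ENSMUSG00000090877) encode the inducible HSP70, whose transcripts are the classical readout of HSF1 activity. They are single-exon genes on the minus strand of chromosome 17, from 34969190 to 34972156 and from 34956436 to 34959238. The adjusted counts of Hspa1a were 617.1 and 628.2 in subjective day against 529.5 and 491.4 in objective day. Those of Hspa1b were 539.2 and 551.7 in subjective day against 453.8 and 452.2 in objective day. For both copies the objective day samples lay below the subjective day samples, by at least 0.22 on the log2 scale. The log2 fold change was -0.29 for Hspa1a (SE 0.084, limma adjusted p = 0.0828) and -0.27 for Hspa1b (SE 0.0828, adjusted p = 0.0964), and neither passed the threshold.

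The copies cannot be counted apart with certainty, because 58.8% of the 50-base stretches of Hspa1a also occur in Hspa1b. Hspa1a in addition shares 564 exonic bases with Gm20481 on the opposite strand, and whether the counting used strand was not given in the sources used here. The 2 copies were therefore also summed. The sum was 1156 and 1180 in subjective day against 983.3 and 943.6 in objective day. Entered as a single gene in the limma fit, it had a log2 fold change of -0.28 (SE 0.0679) and an adjusted p of 0.0493, just inside the threshold. The call was lost with any of 3 single samples left out. The adjusted p was 0.0937 without the second subjective day sample, 0.186 without the first objective day sample and 0.283 without the second. The ratio of Hspa1a to Hspa1b ran from 1.09 to 1.17 over the 4 samples.

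The copies also have nearly the same promoter. The 250 bases before the RefSeq start of each gene (GRCm38.p6) are shown for both because these genes had the same direction and similar fold changes. As the copies cannot be counted apart with certainty, these fold changes may not be independent, and a link with the promoters was not tested. Capitals mark a heat shock element half-site pair, GAANNTTC or TTCNNGAA, each of which reads the same on both strands. The Hspa1a bases lie at chr17:34972157-34972406 and the Hspa1b bases at chr17:34959239-34959488, both on the minus strand, and Hspb1 at chr5:135887669-135887918 on the plus strand is shown as the member with 2 such pairs.
Hspa1a: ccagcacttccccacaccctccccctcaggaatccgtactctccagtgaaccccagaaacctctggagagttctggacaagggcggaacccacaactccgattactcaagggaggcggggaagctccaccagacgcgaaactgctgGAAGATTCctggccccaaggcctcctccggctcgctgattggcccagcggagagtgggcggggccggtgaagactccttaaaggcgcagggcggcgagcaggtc
Hspa1b: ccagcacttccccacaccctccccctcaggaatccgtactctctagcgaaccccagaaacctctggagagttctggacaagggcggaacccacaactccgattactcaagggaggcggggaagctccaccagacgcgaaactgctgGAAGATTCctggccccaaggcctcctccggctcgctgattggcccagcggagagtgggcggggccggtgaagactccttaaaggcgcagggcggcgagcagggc
Hspb1: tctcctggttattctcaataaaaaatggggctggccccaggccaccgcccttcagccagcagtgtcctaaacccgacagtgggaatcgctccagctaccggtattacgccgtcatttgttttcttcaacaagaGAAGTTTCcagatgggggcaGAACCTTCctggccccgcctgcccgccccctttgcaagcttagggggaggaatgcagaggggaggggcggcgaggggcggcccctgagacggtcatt

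The Hspa1a and Hspa1b windows were identical at 247 of 250 positions, and in each the pair began 104 bases before the start. Windows were found for 6 of the 10 genes, all but Hsf1, Hspa8, Hsp90aa1 and Hsp90ab1. Of the 6, 5 (Hspa1a, Hspa1b, Hsph1, Hspb1 and Dnaja1) held such a pair in at least 1 window. This compares with 14.5% of the 27025 genes with a window of this length. For Dnaja1 only the window at chr4:40722218-40722467 held a pair, and the windows of its other RefSeq starts held none. The longer form, in which a further GAA or TTC follows after any 2 bases and which contains the shorter pair, occurred in 0.514% of genes and in no member. The matches of Dnaja1 and Hsph1 are shown with 11 bases on either side because the first was called lower and the second was not called. They lie at chr4:40722333-40722362 on the plus strand and at chr5:149636351-149636380 on the minus strand. Both matches lie inside the GENCODE span of their gene, not before it. That span begins at 40722150 for Dnaja1 and, on the minus strand, at 149636376 for Hsph1.
Dnaja1: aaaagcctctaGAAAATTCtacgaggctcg
Hsph1: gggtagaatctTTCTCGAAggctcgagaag

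Hspa8 (ENSMUSG00000015656), the constitutive HSP70 that also uncoats clathrin vesicles, maps to chromosome 9 from 40800984 to 40810087, plus strand. Its adjusted counts were 11879 and 11106 in subjective day against 12083 and 11653 in objective day. The conditions overlapped, with a log2 fold change of 0.05 (SE 0.0674, limma adjusted p = 0.711). Per kilobase Hspa8 stood at 3639 ± 173 (SD, n = 2) in subjective day, far above Hspa1a at 210 ± 2.65 and Hspa1b at 195 ± 3.16, so the constitutive form was the higher of these 3 genes. Of its 50-base stretches 52.7% were shared with other annotated genes, among them Gm26825, which had adjusted counts of 226.7, 192.1, 368.2 and 252 in the order of the samples above. Hsph1 (ENSMUSG00000029657), the HSP110 nucleotide exchange factor, maps to chromosome 5 from 149614287 to 149636376, minus strand. It had adjusted counts of 2027 and 1744 in subjective day against 2083 and 1997 in objective day. Hsph1 overlapped as well, at a log2 fold change of 0.12 (SE 0.083, limma adjusted p = 0.425), and it shared no 50-base stretch with another gene.

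Of the J-domain pair, Dnaja1 was called and Dnajb1 was not, and the difference between them was not tested. Dnaja1 (ENSMUSG00000028410) maps to chromosome 4 from 40722150 to 40737149, plus strand. Adjusted counts of Dnaja1 were 2479 and 2522 in subjective day against 1946 and 1780 in objective day, a gap of 0.35 on the log2 scale. Dnaja1 fell by 0.43 on that scale (SE 0.0673, limma adjusted p = 0.0116), from a mean of 2501 ± 30 (SD, n = 2) to 1863 ± 117 (SD, n = 2). Without the second objective day sample the log2 fold change was -0.36 and the adjusted p was 0.0809. Of the 50-base stretches of the longest Dnaja1 transcript, 28.8% also occurred in another annotated gene, with Gm15542 at 15.7%, Gm7816 at 14% and Smu1 at 10%. Dnaja1 shares 608 exonic bases with Smu1 on the opposite strand. Smu1 had adjusted counts of 2111, 1881, 1975 and 1909 in the same order of samples, with the conditions overlapping. Dnajb1 (ENSMUSG00000005483), the J-domain protein most closely tied to the stress response, maps to chromosome 8 from 83608193 to 83612653, plus strand. Its adjusted counts were 1572 and 1384 in subjective day against 1640 and 1572 in objective day. The nearest values of the 2 conditions were the same after rounding, and the log2 fold change was 0.12 (SE 0.079, limma adjusted p = 0.378).

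Hspb1 (ENSMUSG00000004951), the small heat shock protein that holds unfolded clients and stabilises actin, maps to chromosome 5 from 135887919 to 135889563, plus strand. The 4 samples gave adjusted counts of 322.5 and 204.9 in subjective day against 275.2 and 255.2 in objective day. The samples of subjective day bracketed those of objective day, and the log2 fold change was 0.04 (SE 0.202, limma adjusted p = 0.918), the largest standard error of the 10 genes. In both conditions the sample numbered 1 had the higher value, as it did for the lens marker sum given above and for Hsp90aa1, Hsp90ab1, Hspa8, Hsph1 and Dnajb1. The part of lens RNA in these values was not tested. Of the 50-base stretches of the longest Hspb1 transcript, 51.6% also occurred in another annotated gene.

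Per kilobase and averaged over the 4 samples, the order of levels was Hsp90ab1 (8321), Hsp90aa1 (7138), Hspa8 (3699), Dnajb1 (515), Hsf1 (455), Hsph1 (412), Dnaja1 (388), Hspb1 (284), Hspa1a (191) and Hspa1b (178). The first 3 stood clearly apart from the rest. In subjective day Dnajb1 at 462 and 525 lay above Dnaja1 at 441 and 449, while Hsf1 at 408 and 441 overlapped Hsph1 at 366 and 425, and these neighbouring levels were given no test. In objective day Dnaja1 was the lowest of these 4 in both samples, at 331 ± 20.8 (SD, n = 2) beside 428 ± 12.7 for Hsph1. The order depends on the longest transcript used as length, 5.622 kb for Dnaja1, 4.764 for Hsph1, 3.133 for Hsf1 and 2.996 for Dnajb1. Levels were not corrected for sequence shared with other genes.

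Across 17536 genes of known GC content, the fold change rose with GC content (Spearman correlation 0.583; genes are not independent replicates). Dnaja1 (41.2% GC) and Hsp90aa1 (43.7%) lay below the median of 49.8%, where fold changes were mostly below 0. Hspa1a (58.9%) and Hspa1b (58.1%) lay well above it, where they were mostly above 0. With each sample's trend on GC content removed by local regression, the log2 fold change of Dnaja1 was -0.09 (limma adjusted p = 0.651) and that of Hsp90aa1 was -0.37 (adjusted p = 0.2). For Hspa1a and Hspa1b it was -0.41 and -0.38, with adjusted p of 0.0786 and 0.095, and the summed copies stayed inside the threshold at -0.40 and 0.0495. The part removed was -0.34 for Dnaja1, -0.18 for Hsp90aa1 and 0.12 for Hspa1a on the log2 scale. In that fit 0 of the 10 genes were called, 3 had an unadjusted p under 0.05 against 13.5% of all genes, and 1.27% of all genes were called, 116 lower and 107 higher, in place of 1325 lower and 189 higher. The correction also removes any biological difference that goes with GC content, and an effect of the libraries and an effect of light cannot be told apart in 4 samples.

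**Figure D3:**
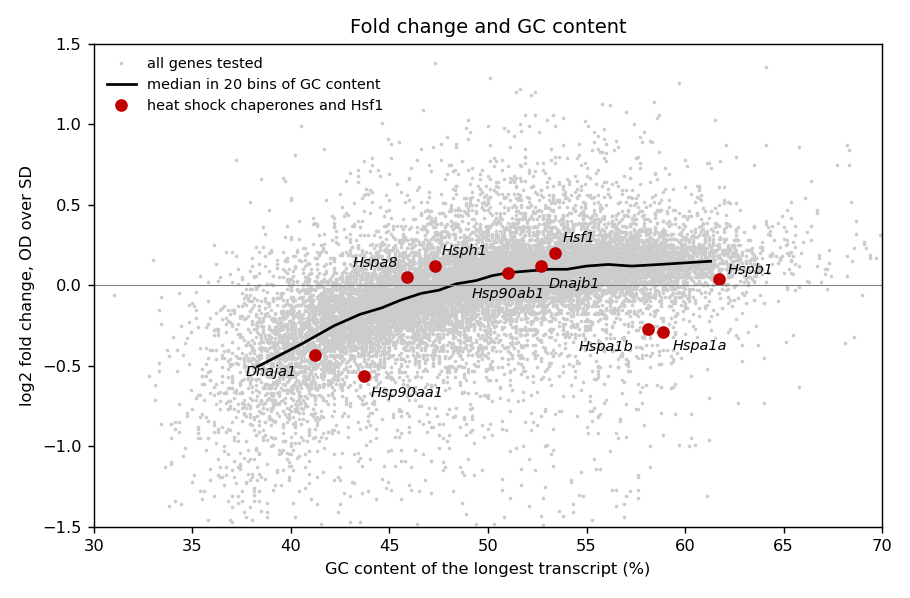
Log2 fold change, objective over subjective day, against the GC content of the longest transcript in percent, for all genes tested (grey; genes beyond the axes are not drawn), with the median in 20 bins of GC content as a black line and the 10 genes in red. Dnaja1 lies near the line, Hsp90aa1 below it, and Hspa1a and Hspa1b far below it at 58.9% and 58.1% GC.

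The comparison was extended to the other genes of the chaperone network. Of 105 further genes in 10 lists, 101 were tested, 11 were called lower and 1 higher in objective day, or 10.9% and 0.99%, against 7.45% and 1.06% of all genes. Without the first subjective day sample the split was 13 lower and 14 higher, and without the second objective day sample it was 6 lower and 1 higher. In each fit with a sample left out, here and elsewhere, 1 condition had a single sample, which was assumed to vary like the other condition. Their median log2 fold change was -0.03. The GC content of all 11 genes called lower was under the median, from 35.5% to 46.9%, and with the GC trend removed 1 of the 101 was called.

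Among the other heat shock factors and the HSF-binding protein Hsbp1, 1 of 4 genes tested was called. Hsf2, which forms mixed trimers with HSF1, had adjusted counts of 982.6 and 1055 in subjective day against 603.1 and 618.6 in objective day. It fell by 0.74 on the log2 scale (SE 0.0764, limma adjusted p = 0.00558), but at 36.2% GC its value with the GC trend removed was 0.02 (adjusted p = 0.937). Of the 7 other HSP70 and HSP110 genes, Hspa4l, an HSP110 relative, was called, with a log2 fold change of -0.48 (limma adjusted p = 0.00697), and -0.03 with the GC trend removed. Of the 15 other J-domain genes tested, Dnajb4 was called, at -0.61 (adjusted p = 0.00558) and at -0.33 (adjusted p = 0.095) with the trend removed. The J-domain count was 2 lower and 2 higher without the first subjective day sample, and 2 lower without the second.

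Of the 15 HSP90 co-chaperones, 4 were called lower and 0 higher, but 1 and 0 without the second objective day sample and 4 and 3 without the first subjective day sample. Ptges3, the p23 protein that stabilises the closed form of HSP90, had adjusted counts of 1443 and 1393 in subjective day against 1040 and 923.5 in objective day. The log2 fold change of Ptges3 was -0.53 (limma adjusted p = 0.00965), and -0.32 (adjusted p = 0.14) with the GC trend removed. Cacybp, Chordc1 and Sugt1 had log2 fold changes of -0.51, -0.49 and -0.33 (limma adjusted p = 0.0123, 0.0138 and 0.0286), and of -0.13, 0.32 and -0.00 with the trend removed, so that Chordc1 changed direction. The median of the 15 genes was 0.04. In limma's test 0 of the 10 HSP70 co-chaperones were called and 2 reached an unadjusted p under 0.05, and Bag4 came nearest at -0.37 (limma adjusted p = 0.0506), and it passed the threshold with TMM scaling (adjusted p = 0.049) or a filter on the mean of at least 10 (0.0498). Without the first subjective day sample 4 of the 10 were called, 1 lower and 3 higher.

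Hspb6 was the gene of these lists called higher with all 4 samples, among 7 other small heat shock proteins. The Hspb6 counts were 5495 and 4497 in subjective day against 7325 and 6832 in objective day. Hspb6 rose by 0.51 on the log2 scale (SE 0.098, limma adjusted p = 0.0223), with 0.41 and an adjusted p of 0.0907 once the GC trend was removed. Without the first objective day sample the adjusted p of Hspb6 was 0.0644. Among 13 genes of the chaperonin TRiC and prefoldin, which fold actin and tubulin, Vbp1, a prefoldin subunit, was called. It had adjusted counts of 1496 and 1783 in subjective day against 696.9 and 604.1 in objective day. Vbp1 fell by 1.33 on the log2 scale (SE 0.108, limma adjusted p = 0.00538), and it was the gene of these lists still called with the GC trend removed (-0.49, adjusted p = 0.0369). Without the first subjective day sample 1 gene of this list was called lower and 1 higher, and 2 were lower without the second. The small heat shock proteins had 2 called higher without the first.

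The chaperones of the organelles were counted separately. Of the 14 genes of the endoplasmic reticulum, 3 were called lower and 0 higher, Dnajb9 at -0.83, Hspa13 at -0.42 and Pdia3 at -0.33 (limma adjusted p = 0.0098, 0.0158 and 0.0344), and 10 had an unadjusted p under 0.05. With the GC trend removed these 3 were at -0.45, 0.01 and -0.27, 0 of the 14 were called and 3 had an unadjusted p under 0.05. The count was 1 lower without either objective day sample, 3 lower and 2 higher without the first subjective day sample, and 5 lower without the second. In limma's test 0 of the 12 mitochondrial chaperones and proteases were called and 3 reached an unadjusted p under 0.05, with log2 fold changes from -0.14 to 0.20 and the smallest adjusted p, 0.106, for Trap1, which was called without the first subjective day sample (adjusted p = 0.0449). Of 20 further genes known as HSF1 targets, 4 were called lower (Dnajb4, Hspa4l, Cacybp and Chordc1, all given above) and 0 higher, and their median log2 fold change was 0.07. Without the first subjective day sample 4 were called lower and 6 higher, and without the second objective day sample 2 lower and 0 higher.

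**Figure D4:**
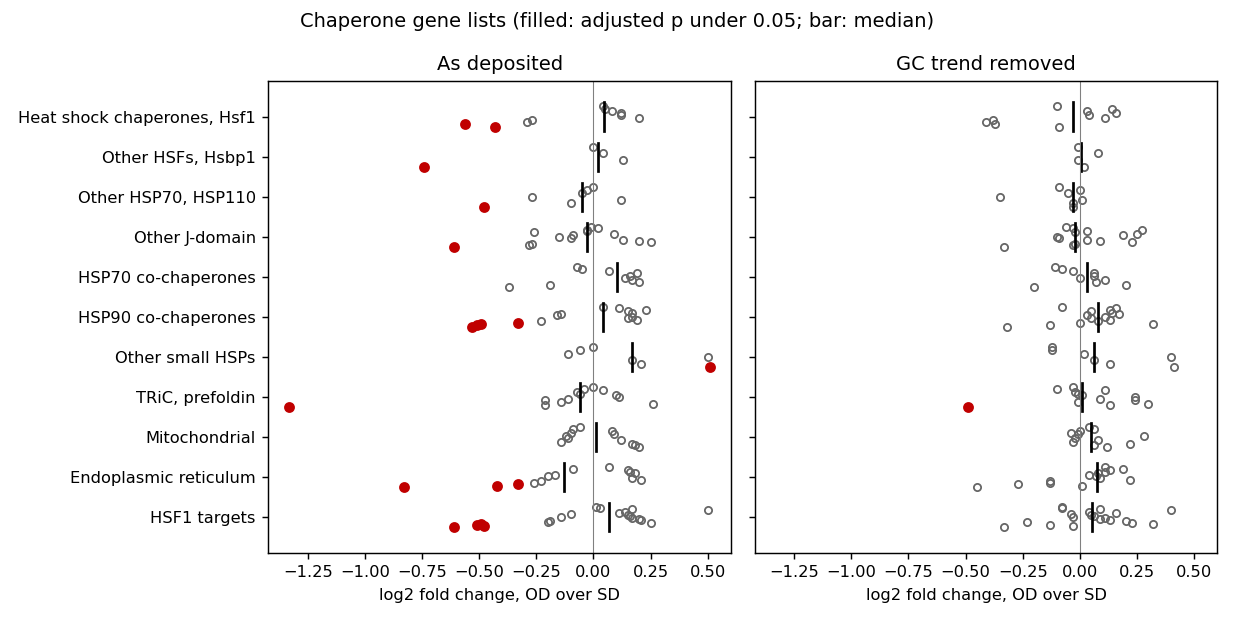
Log2 fold change, objective over subjective day, of every tested gene of the 10-gene family and the 10 further lists, as deposited (left) and with the GC trend removed (right). Filled red points passed an adjusted p of 0.05, open points did not, and bars are list medians. On the right Vbp1 in the TRiC and prefoldin list is the filled point.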

How the data were processed

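Per the submitters' processing notes and the methods, the authors demultiplexed reads with CASAVA 1.8, aligned them with TopHat2 2.0.9 and Bowtie2 2.1.0 to the mouse Ensembl annotation, counted genes with HTSeq and compared conditions with edgeR. The strand setting, count filter and normalization were not given in the sources used here. The deposited values are a signal per gene and sample that looks, from its fractional values and similar sums, like counts adjusted to a common library size. No source used here states this, so depth is unknown and limma 3.58.1 in R 4.3.3 was used on log2(value + 1), with a variance prior following mean expression, Benjamini-Hochberg adjustment and no rescaling. The deposited log2 fold changes, log2 CPM, p-values and adjusted p-values are the authors' own comparison and were not used.

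GC content, lengths, positions and 50-base stretches came from GENCODE M21 (GRCm38), and GC content was known for 98% of listed genes. GC correction used a loess span of 0.3. The alternatives were scaling by TMM (trimmed mean of M values, written out for these values) or median-of-ratios factors, no filter or a mean of at least 10, pseudocounts of 0.5 and 10, no mean trend in the variance prior, a replicate block, GC removal with and without the block, and each sample left out. Promoter windows came from RefSeq (GRCm38.p6). The method was tested on simulated data. The members and lists were chosen with earlier results of these data known. All 10 members are named, and from every other list each called gene, at most 4, or else the one with the smallest adjusted p. The labels do not say that the samples of a condition share nothing beyond it, so p-values measure only the spread between these samples.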

Additional observations from a re-analysis of the deposited data

How the results depend on the processing

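Over 14 alternatives, 123 of the 140 values of single members kept direction and side of the threshold, 7 lost it, 4 passed it and 6 changed sign, all 6 in genes that were not called. Without the second subjective day sample the log2 fold change was -0.0016 for Hspa8, -0.02 for Hsp90ab1 and -0.28 for Hspb1. Hspb1 was also at -0.01 without the first objective day sample and at -0.10 with the GC trend removed, with or without a replicate block. Without the mean trend in the variance prior limma called 0 of all genes, 0 members and 0 genes of the other lists, with 3586, 4 and 17 at an unadjusted p under 0.05. With the GC trend removed the counts were 223, 0 and 1. With single samples left out they ran from 674 to 2778, from 0 to 2 and from 7 to 27. The counts fell to 674 and 7 without the second objective day sample, and to 775 for all genes without the first, and rose to 2778 (1781 lower, 997 higher) and 27 (13 lower, 14 higher) without the first subjective day sample. Over single samples left out, Hspa8 ran from -0.0016 to 0.10, Hsp90ab1 from -0.02 to 0.19 and Hspb1 from -0.28 to 0.37. The summed Hspa1a and Hspa1b stayed at -0.28 but lost the call with no filter (adjusted p = 0.0571) or no mean trend (0.174), and ran from -0.31 to -0.25 with single samples left out. With the GC trend removed, with or without the block, the called genes of the other lists that changed sign were Hsf2 (0.02), Chordc1 (0.32, called higher with the block, adjusted p = 0.0103) and Hspa13 (0.01). The cause of these changes was not tested.

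Samples with the same number share only that number in the labels, and their deviations from the group means had a correlation of 0.319 across genes. With a replicate block limma called 3613 genes (2331 lower, 1282 higher, 20.3% of those tested), 4 members (Hspa1a and Hspa1b in addition, adjusted p = 0.0385 and 0.0499) and 29 genes of the other lists (20 lower, 9 higher). With the block and the GC trend removed together, 3 members were called, Hsp90aa1, Hspa1a and Hspa1b, and Dnaja1 was not (adjusted p = 0.337). That fit called 1583 of all genes (707 lower, 876 higher) and 17 genes of the other lists (5 lower, 12 higher), so the excess of genes called lower turned into an excess called higher. For the HSF1 targets it gave 1 lower and 3 higher, and for the endoplasmic reticulum 2 and 2. The files give no depth that would set a limit on what could be detected.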
